A study of Homo sapiens with 4 samples.

Results

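The subject here is a group of 10 transcription factors of the paraxial mesoderm and of skeletal myogenesis (UNCX, MEOX1, MEOX2, TBX1, TCF15, PAX1, PAX3, PAX7, MYF5 and MYOD1), out of 23615 gene symbols measured by RNA-seq in day 14 cardiomyocyte cultures. The factors were taken by symbol, and they were selected on earlier results of these same 4 libraries, so their values are described without a test. A single factor, UNCX, was expressed, and it was expressed in 1 of the 2 kinds of culture. UNCX had 6.27 and 4.71 FPKM in cardiomyocytes from cardiac progenitor cells (CPCs) and 0.0972 and 0.129 FPKM in cardiomyocytes from endothelial cells (ECs). The other 9 factors stayed below 1 FPKM in every library.

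The starting line for all libraries was RUES2, a human embryonic stem cell line. Mesoderm was induced by activin A (100 ng/ml) followed by BMP4 (5 ng/ml), a regime named A100/B5, together with the Wnt/β-catenin activator CHIR-99021 (1 µM), and unsorted cells were harvested on day 14. In the CPC group, A100/B5 cells followed the cardiac protocol, for which the methods describe 1 µM XAV-939, a tankyrase inhibitor that blocks Wnt/β-catenin signaling, on day 3 in part of the experiments. In the ECsXAV group, A100/B5 cells were moved on day 2 to endothelial medium with 200 ng/ml VEGF, 5 ng/ml bFGF and 10 ng/ml BMP4, and were given 2 µM XAV-939 from day 5. Each group had 2 biological replicates of this 1 cell line. The name prefix of the samples also differs by group, and the labels do not say what it marks. Whatever it marks, such as separate experiments, cannot be told apart from group. In unsorted cultures, fewer cells that express a gene and less RNA per cell cannot be told apart either.

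Paraxial mesoderm is the tissue beside the neural tube that segments into somites. Each somite forms a ventral sclerotome, the source of vertebrae and ribs, and a dorsal dermomyotome, from which skeletal muscle arises. Heart muscle instead comes from lateral plate mesoderm, and part of the head and outflow tract muscle from pharyngeal mesoderm. TCF15 (paraxis), MEOX1 and MEOX2 act across the early somite, UNCX marks the caudal part of the sclerotome and PAX1 the sclerotome. PAX3 and PAX7 mark muscle progenitors as well as dorsal neural tube and neural crest, and MYF5 and MYOD1 commit cells to skeletal muscle. TBX1 acts in the pharyngeal mesoderm and in the progenitors of the outflow tract. UNCX is also known from parts of the developing brain and kidney.

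Promoter sequences are shown for the factor that was expressed and for the 2 factors that were listed at 0 in every library. Windows of 300 bases, from 250 bases before the gene start to 50 bases after it, were taken from RefSeq (GRCh38.p14), which gave a window for 6 of the 10 factors. All 6 had a single exact match in GRCh37, the build of hg19, on which the reads were aligned. Those below lie on the plus strand at chr7:1272258-1272557 (UNCX), chr1:18957090-18957389 (PAX7) and chr12:81110441-81110740 (MYF5) of GRCh37. Capitals mark E-boxes (CANNTG), the site of basic helix-loop-helix factors such as TCF15, MYF5 and MYOD1, and the homeodomain core TAATTA. Each of these motifs is its own reverse complement or was counted on both strands.
UNCX: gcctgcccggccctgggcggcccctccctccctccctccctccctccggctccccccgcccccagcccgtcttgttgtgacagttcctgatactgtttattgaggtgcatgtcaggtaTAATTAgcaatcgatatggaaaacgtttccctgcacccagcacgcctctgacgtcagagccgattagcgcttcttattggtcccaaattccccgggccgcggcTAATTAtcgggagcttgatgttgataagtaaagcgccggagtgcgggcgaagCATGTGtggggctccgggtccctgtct
PAX7: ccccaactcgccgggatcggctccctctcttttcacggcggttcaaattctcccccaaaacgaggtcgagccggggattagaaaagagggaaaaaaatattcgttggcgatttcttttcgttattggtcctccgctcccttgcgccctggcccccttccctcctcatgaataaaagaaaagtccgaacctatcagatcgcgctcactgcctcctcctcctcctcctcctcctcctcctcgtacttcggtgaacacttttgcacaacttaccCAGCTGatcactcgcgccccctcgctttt
MYF5: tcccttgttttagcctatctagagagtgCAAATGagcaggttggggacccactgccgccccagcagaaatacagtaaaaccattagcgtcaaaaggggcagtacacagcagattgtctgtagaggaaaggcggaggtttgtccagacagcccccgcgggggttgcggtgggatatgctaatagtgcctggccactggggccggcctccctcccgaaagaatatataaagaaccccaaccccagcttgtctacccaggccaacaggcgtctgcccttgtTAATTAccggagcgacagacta

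The UNCX window held TAATTA at 2 places and 1 E-box. Of 35116 RefSeq windows of this length, 4.84% held TAATTA at least once and 0.416% at 2 or more places, while 68.7% held an E-box. The MYF5 window held 1 TAATTA and 1 E-box, and the PAX7 window 1 E-box, of the form CAGCTG, which 17.9% of windows hold and which is also counted among the E-boxes. Among the other windows, TBX1 had 2 E-boxes, MEOX2 had 1 and PAX3 had none, and none of the 6 held the T-box core GGTGTGA or the TCF/LEF core CTTTGA, found in 3.45% and 12.9% of windows. The GC content was 59.7% for UNCX, 54.3% for PAX7 and 54.7% for MYF5, against a median of 58.7%, with 20, 21 and 11 CpG dinucleotides against a median of 14. These letters are descriptions of the windows and no binding was measured.

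FPKM, the deposited unit, counts fragments per kilobase of transcript and per mapped fragments of the library, so levels may be compared between genes. Pairs of values are given for replicate 1 and then replicate 2. A gene was called detected from 1 FPKM. By this limit 1 factor was detected in each CPC library and none in either ECsXAV library, beside 12070 to 12240 detected genes per library. The 9 undetected factors compare with 45.2% of all symbols that stayed below 1 FPKM in all 4 libraries. PAX7 and MYF5 were listed at 0 in all 4 libraries, as were 20.5% of all symbols. The values nearest to the limit were 4.71 FPKM of UNCX in CPC replicate 2 on the upper side and 0.703 FPKM of TCF15 in ECsXAV replicate 2 on the lower side. The cultures expressed cardiac genes throughout. All 10 cardiomyocyte markers examined reached 1 FPKM, with a summed level of 15886 to 16645 FPKM in the ECsXAV libraries and 14048 to 14906 FPKM in the CPC libraries. MYL7 was the largest part of each sum, and single markers differed in both directions. MYH7 had 1011 and 931 FPKM in ECsXAV cultures against 147 and 194 FPKM in CPC cultures. NPPA had 264 and 331 against 26.1 and 32.4 FPKM, and MYH6 855 and 857 against 2070 and 1901 FPKM. All of these were called in the limma fit described below, and the other cardiomyocyte markers were not.

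**Figure D1:**
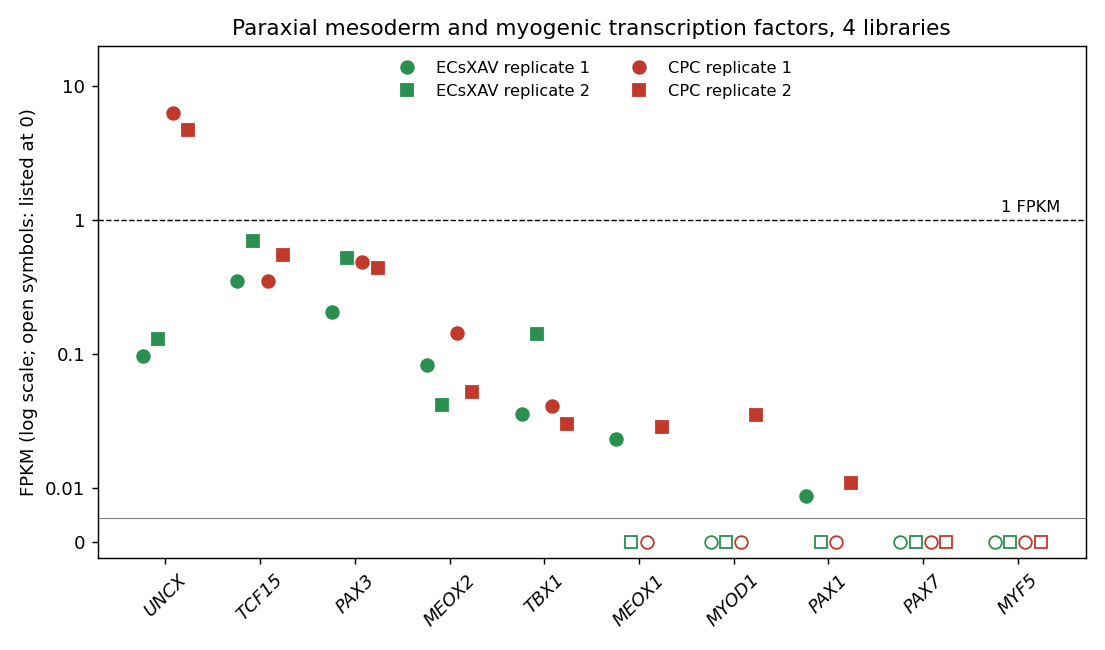
FPKM of the 10 factors on a log scale in the 2 ECsXAV libraries (green) and the 2 CPC libraries (red), with circles for replicate 1, squares for replicate 2 and open symbols for genes listed at 0. UNCX in the CPC libraries, at 6.27 and 4.71 FPKM, has the only points above the dashed line at 1 FPKM.

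Weakly expressed genes allowed the number of reads behind each value to be estimated. FPKM between 0.005 and 0.1 come in whole-read steps, whose ratio gave the depth relative to ECsXAV replicate 1, which was 50.1% for the other ECsXAV library and 86.9% and 79.8% for the CPC libraries. From the step size of 687 genes with a single transcript of known length, the libraries held about 22000000 and 11000000 mapped fragments in the ECsXAV group and 19100000 and 17600000 in the CPC group. For UNCX the 4 values stood in the ratio of 3 and 2 reads in ECsXAV cultures to 168 and 116 reads in CPC cultures. These are the smallest whole numbers that give the ratio. The annotated transcript length of 2091 bases would put them somewhat higher, at 4.05, 2.70, 227 and 157 reads. Intervals below cover counting error only.

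UNCX, a paired-type homeobox gene (ENSG00000164853), lies on the plus strand of chromosome 7 from 1272508 to 1276962 (GRCh37) and has 3 exons. Its level was 0.113 ± 0.0227 FPKM (SD, n = 2) in ECsXAV and 5.49 ± 1.101 FPKM (SD, n = 2) in CPC cardiomyocytes. The lowest CPC library was 36.4-fold above the highest ECsXAV library, while replicates within either group differed 1.33-fold. The ratio of the mean FPKM was 48.5. From the smallest whole read numbers, corrected for depth, the ratio was 51.2, with an exact 95% counting interval from 21.7 to 159. The interval is wide because these numbers put only 5 reads in the ECsXAV group. The higher read numbers estimated from length were not used for it. The log2 fold change of FPKM + 1 was 2.53, which the added 1 understates, and 4.70 with an added 0.1. The values of the groups did not overlap for UNCX alone among the 10 factors, and they did not overlap for 49.8% of the 12398 genes that averaged 1 FPKM or more. UNCX is the only 1 of the 10 factors in that set, so the share is a background for UNCX and not for the others.

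By the ratio of CPC to ECsXAV mean FPKM, UNCX was 6th of 12329 genes with a mean of at least 1 FPKM and some signal in ECsXAV cardiomyocytes. Without microRNA and small nucleolar RNA genes it was 2nd of 12095, behind PTCD1. UNCX was chosen with this contrast known, and it passes the mean limit only through its CPC level. These ranks and the counting interval above are therefore descriptions and no test. In CPC cardiomyocytes its level was above that of 66.8% of all symbols, and in ECsXAV cardiomyocytes above that of 34.5%. The genes closest to UNCX in level and pattern, by the Euclidean distance of log2(FPKM + 1) over the 4 libraries, were SPOCK3 (distance 0.571), the small nucleolar RNA gene SNORA10 (0.597) and ASTN1 (0.677). SPOCK3 had 0.348 and 0.418 FPKM in ECsXAV cultures and 5.35 and 3.63 FPKM in CPC cultures. ASTN1 had 0.426 and 0.318 FPKM against 5.51 and 3.07 FPKM. SNORA10 was listed at 0 in ECsXAV cultures and had 6.75 and 7.34 FPKM in CPC cultures.

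**Figure D2:**
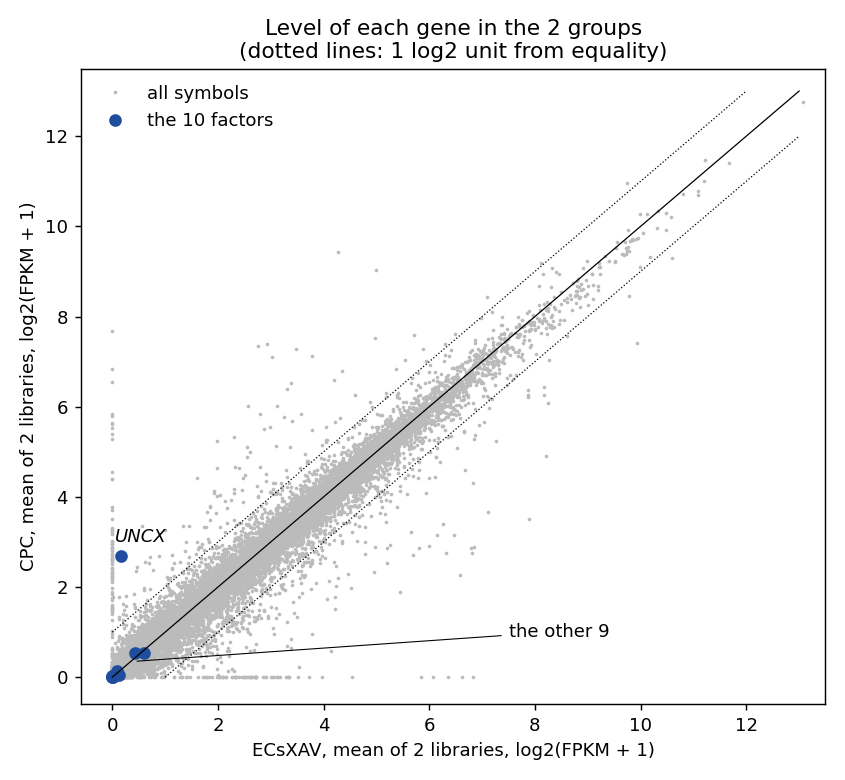
Mean log2(FPKM + 1) of each symbol in the ECsXAV libraries (x axis) and the CPC libraries (y axis), with the 10 factors in blue. UNCX lies 2.53 above the line of equality, and the other 9 lie near the origin, within 0.11 of that line.

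The genes around UNCX were measured in the same libraries. In a limma fit over the 12398 genes that averaged 1 FPKM or more, a gene was called when it differed more than 2-fold with an adjusted p below 0.05 (Benjamini-Hochberg), and 2.15% of them were called, 0.71% higher in CPC and 1.44% higher in ECsXAV cardiomyocytes. None of the 12 tested protein-coding genes within 500 kb of UNCX was called by limma, and 1 had an unadjusted p under 0.05, which 18.2% of all tested genes had. Their log2 fold changes ran from -0.40 to 0.46. The nearest gene before UNCX is ZFAND2A, a zinc finger gene whose end lies 72113 bases away, with 5.94 and 5.54 FPKM in ECsXAV cultures and 5.72 and 7.36 FPKM in CPC cultures (log2 fold change 0.15, standard error 0.15, adjusted p = 0.651 from limma). The nearest gene after it is MICALL2, 191139 bases away, with 2.59 and 3.02 FPKM against 2.39 and 2.42 FPKM (log2 fold change -0.16, standard error 0.13, adjusted p = 0.605 from limma). The interval between these neighbors thus held a gene at 5.49 FPKM in CPC cardiomyocytes between genes at 6.54 and 2.41 FPKM.

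**Figure D3:**
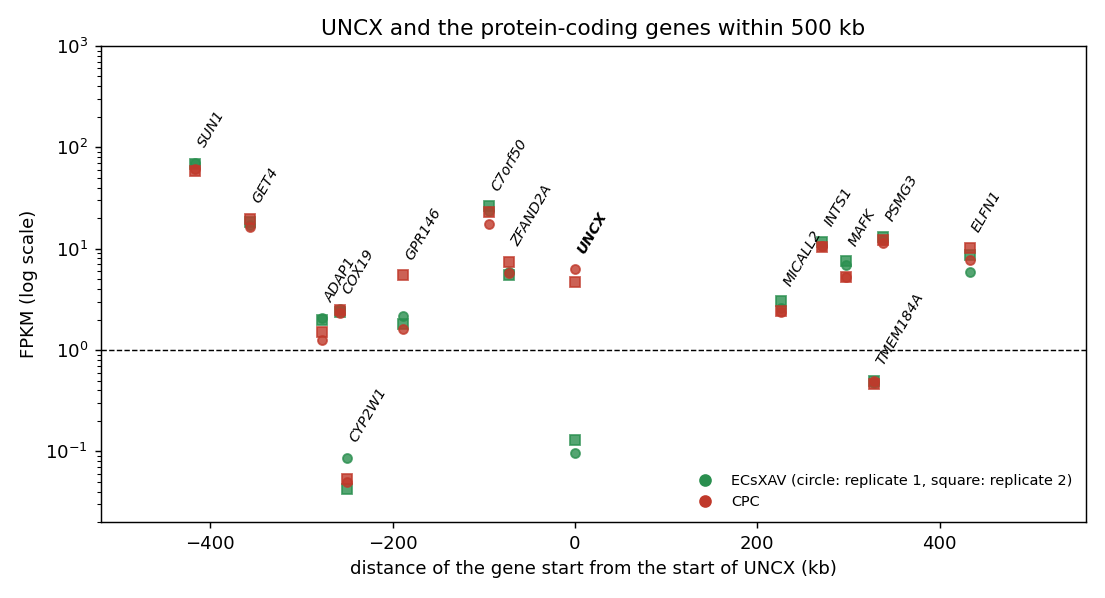
FPKM (log scale) of UNCX and the 14 other protein-coding genes within 500 kb, placed by the distance of their start from that of UNCX in kb, with ECsXAV libraries in green and CPC libraries in red. Only UNCX has its green points, at 0.0972 and 0.129 FPKM, far below its red points, at 6.27 and 4.71 FPKM.

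The early somite factors rested on at most 10 reads in any library. TCF15, a basic helix-loop-helix factor needed for epithelial somites, at bases 584901 to 590953 of chromosome 20, was measured at the highest level of the undetected factors. It had 0.352 and 0.703 FPKM in ECsXAV cultures and 0.355 and 0.552 FPKM in CPC cultures, a ratio of 8, 8, 7 and 10 reads. The groups overlapped, and the doubled FPKM of ECsXAV replicate 2 rests on the same number of reads as replicate 1 in a library of 50.1% of the depth.

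MEOX2, a homeobox gene of the somite and of limb muscle, at bases 15650837 to 15726308 of chromosome 7, was measured at 0.0833 and 0.0416 FPKM in ECsXAV cultures and 0.144 and 0.0522 FPKM in CPC cultures. These stood in the ratio of 4, 1, 6 and 2 reads, and the groups overlapped. Its paralog MEOX1, on chromosome 17 from 41717757 to 41739290, was listed at 0 in ECsXAV replicate 2 and CPC replicate 1. It had 0.0233 FPKM in ECsXAV replicate 1 and 0.0288 FPKM in CPC replicate 2, about 1.27 and 1.25 reads by its length. The highest value of either MEOX gene was thus 0.144 FPKM.

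PAX1, the paired box gene of the sclerotome, at bases 21686297 to 21699119 of chromosome 20, was measured at 0.00878 FPKM in ECsXAV replicate 1 and 0.011 FPKM in CPC replicate 2, each about 0.996 reads by length, and was listed at 0 in the other 2 libraries. By length, 227 and 157 reads of UNCX in the CPC libraries thus stood beside about 1 read of PAX1 in CPC replicate 2. For its 5342-base transcript, 3 reads correspond to 0.0265 to 0.0528 FPKM, and a difference between groups that are both below this was not detectable.

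PAX3, at bases 223064606 to 223163717 of chromosome 2, was measured at 0.206 and 0.522 FPKM in ECsXAV cultures and 0.486 and 0.437 FPKM in CPC cultures, about 14.3, 18.2, 29.4 and 24.3 reads by its length. It was the undetected factor with the most reads, and ECsXAV replicate 2 was above both CPC libraries. The deposited transcript values put 59.9%, 92.2%, 44.01% and 65.6% of these levels on the transcript NM_181457 in the order of the libraries above, and spread the rest over other transcripts that differed between libraries. At so few reads this division among 8 transcripts is imprecise. TCF15 and PAX3, with means over the 4 libraries of 0.491 ± 0.170 and 0.413 ± 0.142 FPKM (SD, n = 4), are neighbors in the order of levels and differed by less than their spread.

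PAX7, the paralog of PAX3 that marks muscle stem cells, on chromosome 1 from 18957340 to 19075360, was listed at 0 in all 4 libraries. Counts of 0 allow up to 3 reads, or 0.0226 to 0.0452 FPKM for its length. Of the other PAX genes, PAX6, a neural and eye gene, reached the highest level, with 0.149 and 0.203 FPKM in ECsXAV cultures and 0.305 and 0.238 FPKM in CPC cultures. PAX2, PAX5, PAX8 and PAX9 stayed at or below 0.108 FPKM, and PAX4 was listed at 0. No PAX gene was thus detected at 1 FPKM in any library.

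The myogenic factors were listed at 0 or had about 1 read. MYF5, on chromosome 12 from 81110691 to 81113450, was listed at 0 in all 4 libraries, which allows up to 0.102 to 0.203 FPKM at 3 reads. MYOD1, at bases 17741118 to 17743683 of chromosome 11, was measured at 0.0353 FPKM in CPC replicate 2, about 0.995 reads, and was listed at 0 in the others. Of the remaining myogenic regulatory factors, MYF6, the neighbor of MYF5, was listed at 0 throughout, and MYOG (myogenin) had 0.238 and 0.203 FPKM in ECsXAV cultures and 0.430 and 0.128 FPKM in CPC cultures. The groups overlapped for MYOG as well.

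TBX1, at bases 19744226 to 19771116 of chromosome 22, was measured at 0.0358 and 0.143 FPKM in ECsXAV cultures and 0.0412 and 0.0301 FPKM in CPC cultures, about 1.46, 2.92, 1.46 and 0.979 reads by its length. The highest value was in ECsXAV replicate 2, the least deep library, and the groups overlapped. Other genes of the same band of chromosome 22 were well expressed, with 21.6 to 26.0 FPKM for CRKL, 20.8 to 23.0 FPKM for HIRA and 12.1 to 16.4 FPKM for DGCR6 over the 4 libraries. Summed over the 9 factors other than UNCX, about 28.3 and 28.4 reads in ECsXAV cultures and 42.3 and 38.3 reads in CPC cultures were estimated from the transcript lengths. Scaled to the depth of ECsXAV replicate 1 these sums were 28.3 and 56.6 against 48.7 and 48.1 reads, and the groups overlapped. Of the unscaled reads, 20.6, 24.5, 34.8 and 32.1 belonged to PAX3 and TCF15.

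To place the factors among the other genes of their programs, 5 lists that hold none of the 10 were counted in the limma fit. The lists were written with earlier results of these data known, so their counts are descriptions and no test of the lists. In the list for skeletal muscle differentiation, 4 of 17 tested genes were called, all higher in CPC cardiomyocytes, where 0.71% of all tested genes were called in that direction. The 4 are STAC3, a partner of the skeletal calcium channel, TNNC2, the fast skeletal troponin C, ACTN3, the actinin of fast fibers, and RYR1, the calcium release channel of skeletal muscle. STAC3 rose from 1.91 and 2.19 FPKM in ECsXAV cultures to 23.6 and 17.7 FPKM in CPC cultures (log2 fold change 2.81, standard error 0.17, adjusted p = 0.00807 from limma). TNNC2 rose from 2.92 and 3.01 FPKM to 22.9 and 25.0 FPKM (log2 fold change 2.65, standard error 0.11, adjusted p = 0.00291 from limma). ACTN3 rose from 37.2 and 55.9 FPKM to 129.6 and 129.3 FPKM, and RYR1 from 1.08 and 1.07 FPKM to 4.05 and 3.04 FPKM, with adjusted p of 0.044 and 0.0451 from limma. TNNC2 kept its call when any 1 library was left out. Without the filter on low FPKM, STAC3, ACTN3 and RYR1 lost the call and TNNC2 kept it. STAC3 also lost it without CPC replicate 1, and ACTN3 and RYR1 lost it whichever of the 4 libraries was left out. In the same libraries MYF5, MYF6 and MYOD1 had at most about 1 read, and MYOG was above 0 in all 4 but below 1 FPKM.

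The list had a median log2 fold change of 0.31, against -0.0045 over all tested genes, and 13 of its tested genes were not called. Of its 17 tested genes, 9 had an unadjusted p under 0.05 from limma, against 18.2% of all tested genes. TNNT3, the fast skeletal troponin T, had 3.76 and 3.89 FPKM in ECsXAV cultures and 0.988 and 1.92 FPKM in CPC cultures (log2 fold change -1.002, adjusted p = 0.0989 from limma), and was called, lower in CPC cardiomyocytes, when microRNA and small nucleolar RNA genes were left out. A further 22 of the 40 genes stayed below 1 FPKM in all libraries, 4 of them at 0. Among them were the developmental and fast myosin heavy chains MYH3, MYH8, MYH1 and MYH2.

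In the list for somite formation, 1 of 11 tested genes was called, higher in CPC cardiomyocytes, as were 0.71% of all tested genes. An unadjusted p under 0.05 from limma was found for 5 of the 11, against 18.2% of all tested genes. RSPO3, a secreted enhancer of Wnt signaling, rose from 34.3 and 26.9 FPKM in ECsXAV cultures to 208.6 and 158.1 FPKM in CPC cultures (log2 fold change 2.54, standard error 0.20, adjusted p = 0.0132 from limma). RSPO3 lost the call without ECsXAV replicate 2 and without either CPC replicate. The largest other log2 fold changes among the tested genes of the list were 0.75 for CYP26A1, which breaks down retinoic acid, -0.73 for the Notch-related factor HES6 and 0.62 for the growth factor FGF8, with adjusted p of 0.380, 0.113 and 0.127 from limma. The median was 0.21. The presomitic genes MSGN1, CDX1, CDX4 and T (brachyury) were listed at 0 in every library. TBX6, a factor of presomitic mesoderm, had 0.762 and 1.46 FPKM in ECsXAV cultures and 2.11 and 2.05 FPKM in CPC cultures (log2 fold change 0.56, adjusted p = 0.254 from limma).

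None of the 10 tested genes of the sclerotome and tendon list, to which UNCX and PAX1 belong by function, was called by limma, while 5 had an unadjusted p under 0.05, against 18.2% of all tested genes. COL2A1, the main collagen of cartilage, had 128 and 121 FPKM in ECsXAV cultures and 238 and 259.7 FPKM in CPC cultures (log2 fold change 0.99, standard error 0.12, adjusted p = 0.0331 from limma), just short of the fold limit. TBX2, a T-box repressor, COL9A1, a cartilage collagen, and NOG (noggin), a BMP antagonist, had log2 fold changes of 0.94, -0.88 and 0.74, with adjusted p of 0.124, 0.0918 and 0.2197 from limma. The median of the list was 0.32. The sclerotome gene PAX9 stayed at 0.0195 to 0.0621 FPKM in the 4 libraries. TNMD, a tendon gene, averaged 0.987 FPKM and was not tested. It had 0.355 and 0 FPKM in ECsXAV cultures and 1.81 and 1.78 FPKM in CPC cultures (log2 fold change 1.26). BGN, also untested, went the other way, with 1.23 and 1.21 against 0.510 and 0.505 FPKM (log2 fold change -0.56).

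Of the 25 dermomyotome and muscle progenitor genes, 19 stayed below 1 FPKM in all libraries. None of the 5 that were tested was called by limma, and 2 had an unadjusted p under 0.05, against 18.2% of all tested genes. The largest log2 fold changes of these 5 were 0.71 for BOC, -0.57 for GAS1, 0.32 for CXCR4 and -0.23 for CDON, with adjusted p of 0.0972, 0.144, 0.534 and 0.534 from limma. BOC, GAS1 and CDON are co-receptors of hedgehog signaling, and CXCR4 guides migrating muscle progenitors. LBX1, DMRT2 and DACH2 were listed at 0. EYA1 was the untested gene of the list that reached 1 FPKM in some library. It had 0.580 and 0.738 FPKM in ECsXAV cultures and 1.39 and 1.08 FPKM in CPC cultures.

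In the pharyngeal mesoderm list, the setting of TBX1, none of 13 tested genes was called by limma, while 6 had an unadjusted p under 0.05, against 18.2% of all tested genes, and the median was 0.039. HAND1, a factor of the left ventricle and lateral mesoderm, had 73.5 and 63.6 FPKM in ECsXAV cultures and 15.7 and 27.6 FPKM in CPC cultures (log2 fold change -1.67, adjusted p = 0.0577 from limma). FGF10, a growth factor of the second heart field, had 7.11 and 5.93 FPKM against 26.1 and 14.4 FPKM (log2 fold change 1.45, adjusted p = 0.0848 from limma), and IRX1 had 1.01 and 2.34 FPKM against 5.34 and 6.56 FPKM (log2 fold change 1.42, adjusted p = 0.079 from limma). These 3 genes were called when microRNA and small nucleolar RNA genes were left out of the fit. For HAND2, the paralog of HAND1, the log2 fold change was -0.76 (adjusted p = 0.247 from limma).

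**Figure D4:**
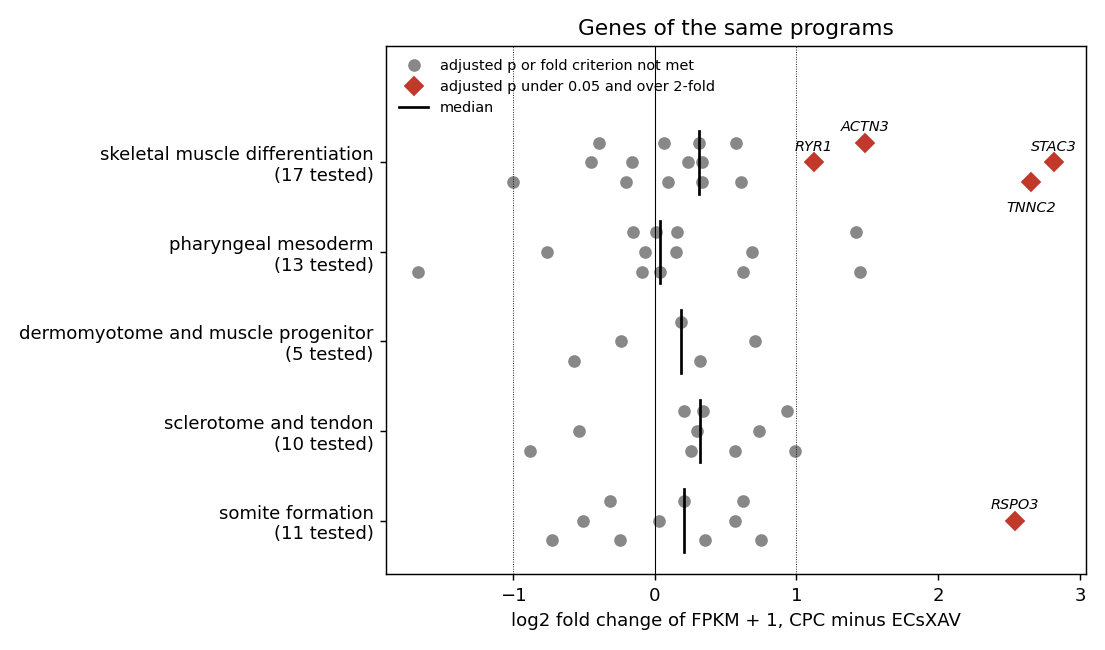
Log2 fold change of FPKM + 1 (CPC minus ECsXAV) for each tested gene of the 5 lists, with red diamonds for genes past the adjusted p and fold criterion, grey circles for the rest and a black bar for the median. The 5 diamonds, RSPO3 and 4 skeletal muscle genes, all lie to the right, and the medians lie between 0.039 and 0.32.

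Markers of other tissues and cell types, among them some in which UNCX, PAX3 or PAX7 are known, were examined beside these values. The 10 neural markers summed to 2.01 and 1.44 FPKM in ECsXAV cultures and 2.79 and 1.82 FPKM in CPC cultures, with 1 marker, DCX, reaching 1 FPKM and SOX1, NEUROG1, OLIG2 and NKX2-2 at 0. The 9 intermediate mesoderm and kidney markers summed to 8.55 and 8.94 FPKM against 9.22 and 11.1 FPKM. Most of this was SALL1, and the renal genes PAX2 and PAX8 stayed at or below 0.108 FPKM. The 9 neural crest and Schwann cell markers summed to 13.2 and 14.6 FPKM against 12.3 and 11.8 FPKM, mostly ERBB3, with TFAP2B at 0 and SOX10 and FOXD3 at or below 0.176 FPKM. The 7 fibroblast markers summed to 154.8 and 178.8 FPKM against 86.5 and 90.2 FPKM, mostly COL1A1 and COL1A2, with FAP at 0. LUM had 8.21 and 10.7 against 0.652 and 0.473 FPKM, and COL1A1, COL1A2, DCN and THY1 were also lower in both CPC libraries. PDGFRA was not, at 10.8 and 10.9 against 14.5 and 10.8 FPKM. The 8 hepatic and endoderm markers summed to 37.1 and 30.9 FPKM against 16.6 and 18.5 FPKM, mostly APOA1 and, in ECsXAV cultures, AFP. AFP had 11.4 and 9.70 against 0.199 and 0.124 FPKM, and TTR 3.92 and 2.23 against 0 and 0.0779 FPKM. AFP, TTR, LUM and COL1A1 were called by limma, all lower in CPC cardiomyocytes. No other marker outside the cardiomyocyte set was called. The 8 endothelial markers summed to 12.9 and 11.9 FPKM against 13.2 and 10.6 FPKM, with 3 markers reaching 1 FPKM, and the 6 pluripotency markers to 7.15 and 3.87 against 2.04 and 1.79 FPKM, with NANOG at 0. Their part in the UNCX difference was not tested.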

How the data were processed

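RNA-seq of 4 libraries, 2 per group, was analysed, with groups and replicate numbers taken from the sample labels and doses from the labels and methods. The deposited FPKM were made by the authors on hg19 with UCSC gene models and Cufflinks 2.1.1, and the submitters' processing notes also name TopHat 1.3.3. Read counts and the authors' test on counts were not used here. For the 554 symbols with several rows, the row of highest mean FPKM was taken. Each of the 10 factors has 1 row.

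Fold changes (CPC minus ECsXAV on log2(FPKM + 1)) and p-values came from limma 3.58.1 in R 4.3.3, with an intensity trend, for the 12398 genes that averaged 1 FPKM or more, over which the Benjamini-Hochberg adjustment was made. The fit was tested on simulated data. Having 2 libraries a group, limma draws much of each variance from the other genes. Whole-read numbers were accepted within 3%, and the FPKM of 1 read was fitted to transcript length less 200 bases. Coordinates, lengths and exons came from GENCODE release 44 on GRCh37. The interval is an exact Clopper-Pearson one at 95%. Python 3.11.15, pandas 2.3.3, NumPy 2.4.6, SciPy 1.17.1 and matplotlib 3.10.9 were used.

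The factors and the gene lists were chosen with earlier results of these data known. Named genes are the 10 factors, the called genes and the 4 largest differences of each list, the other myogenic and PAX genes, the genes nearest to UNCX on the chromosome, the 3 closest in pattern, markers, and others named after their values were seen. Alternatives were a pseudocount of 0.1, no filter, median-of-ratios scaling, a replicate block, no microRNA and small nucleolar RNA genes, the isoform table, and each replicate left out in turn. SCX and RIPPLY3 were not analysed here.

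A few items are not reported here.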

Additional observations from a re-analysis of the deposited data

How the results depend on the processing

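Over 7 alternatives, UNCX kept its direction, with log2 fold changes from 2.36 to 4.70. The differences of MEOX1, MEOX2, TCF15, PAX1 and PAX3, all within 0.11 of 0, changed sign in 1 or 2 settings each. Without a filter on low FPKM, 20 genes were called in all, against 266, 12 of them higher in CPC cardiomyocytes, with 0 of the somite formation list and 1 of the skeletal muscle list (TNNC2). With a replicate block, 176 genes were called, 59 of them higher in CPC cardiomyocytes, and 2 of the skeletal muscle list (STAC3 and TNNC2). The same-numbered libraries of the groups had a rank correlation of 0.356 (Pearson's r 0.035) between their deviations over 12398 genes, but nothing in the labels says that they were grown together. With a pseudocount of 0.1, 1 pharyngeal gene (HAND1) was called, and without microRNA and small nucleolar RNA genes 3 were (FGF10, HAND1 and IRX1). With each replicate left out in turn, where the lone library is assumed to vary like the other group, 50 to 118 genes were called in all, 0 to 1 of the somite formation list and 1 to 2 of the skeletal muscle list. Without CPC replicate 1 or 2, 39 of 50 and 56 of 72 calls were higher in CPC cardiomyocytes, against 88 of 266 with all libraries, and without ECsXAV replicate 1 or 2 these were 39 of 100 and 35 of 118. The sclerotome and dermomyotome lists had 0 calls in every setting. What caused the changes was not tested. ECsXAV replicate 2, at 50.1% of the depth of replicate 1, limits the low factors most.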
